A study of Mus musculus with 36 samples.

Results

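These data describe what adding LIF did to the transcriptome of mouse embryonic stem cells treated with the MEK inhibitor PD03, on soft and on stiff hydrogels. The libraries were chosen by their labels alone. On the soft substrate, 3 libraries from serum+LIF+PD03 were compared with 6 from serum+PD03. On the stiff substrate, 3 libraries from serum+LIF+PD03 were compared with 3 from serum+PD03. These 15 libraries are part of a series of 36. All 15 came from wild-type cells (129m wt in the labels) after 48 h on StemBond hydrogels, polyacrylamide gels that carry covalently bound matrix protein, and every medium contained serum and PD03. Within a substrate, the condition label differed only in LIF. The labels give a single strain, and nothing says that libraries of a group came from separate cultures, so p-values measure the spread between these libraries, which may be technical. The 12 libraries in serum or serum+LIF without PD03 at 48 h, 3 per medium on each substrate, were used only to compare the LIF effect with and without the inhibitor.

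LIF is a cytokine that binds a receptor of LIFR and gp130 (Il6st), activates JAK kinases and STAT3, and sustains self-renewal of mouse embryonic stem cells. The same receptor also feeds the MEK and ERK kinases, and PD03 (PD0325901) blocks MEK. Serum also supplies growth factors, including ligands of the BMP and TGF-beta family.

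Library totals in the 15 libraries ran from 10405696 to 24800445 counts. Levels are given as CPM (counts scaled to a fixed library size after TMM scaling, edgeR's cpm), and fold changes on the log2 scale as LIF minus no LIF, with the standard error (SE) of the edgeR fit. Library numbers only name columns. Spry4, an ERK-induced feedback inhibitor, had group means of 0.573 to 1.17 CPM with PD03 and 126 to 137 CPM without it. Library 2 of soft serum+PD03 was the shallowest of all, and stood apart on the first 2 principal components. The share of counts from mitochondrially encoded mRNAs was 1.24 to 1.55% in soft serum+PD03, 1.5 to 1.75% with LIF on soft, 1.2 to 1.3% in stiff serum+PD03 and 1.32 to 1.54% with LIF on stiff. The sample descriptions open with a code, which was read here as the sequencing pool. By this code the stiff libraries with PD03 all came from 1 pool. The soft ones came from another, but 2 of the 6 in serum+PD03 shared the pool of the stiff libraries, and the columns do not identify them. Soft against stiff and pool against pool therefore cannot be told apart.

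With LIF in the presence of PD03, few genes were called changed, and most of their changes were small. Of 17702 genes tested, 117 (0.661%) rose and 104 (0.588%) fell over both substrates, the mean of the soft and stiff effects, at an edgeR adjusted p under 0.05. The median size of these changes was 0.22 on the log2 scale, and only 6 called genes with a mean of at least 5 CPM moved by more than 0.5. Of the 12 called genes under 5 CPM, which rest on few reads, 5 moved by more than 1. On soft alone 7 genes (0.0395%) rose and 12 (0.0678%) fell. This balance depended on the setting, since 24 rose and 9 fell on soft in a fit of the 15 libraries alone, and 39 rose and 34 fell with no filter on low counts. On stiff alone 52 (0.294%) rose and 39 (0.22%) fell. The median over all genes was -0.002 over both substrates, -0.005 on soft and 0.002 on stiff. Of the 221 genes called over both, 136 were called on neither substrate alone. Between 127 and 233 genes were called over both with 1 library left out, the highest without soft serum+PD03 library 2. The lowest of these counts was without soft serum+LIF+PD03 library 3, and counts of 131 and 144 were found without stiff serum+LIF+PD03 library 1 and stiff serum+PD03 library 2. On soft, leaving out library 1, 2 or 3 of serum+LIF+PD03 left 5, 11 and 3 calls. On stiff, 24, 40 and 42 calls were left without libraries 1, 2 and 3 of serum+LIF+PD03, and 32 and 35 without libraries 2 and 3 of serum+PD03.

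The clearest decreases were in Lefty1 and Lefty2, a neighbouring pair of genes for secreted inhibitors of Nodal. Lefty1 (ENSMUSG00000038793, chr1:180935022-180938400 in GRCm38) had a lowest, median and highest level of 15, 16.4 and 17.6 CPM in the 6 soft libraries without LIF, and 9.57, 11.5 and 12.2 CPM in the 3 with LIF. On stiff it had 17.9, 19.5 and 20.7 CPM without LIF and 10.1, 11.2 and 12.1 CPM with it. The groups did not overlap on either substrate. The log2 fold change was -0.57 ± 0.1 (SE) on soft, -0.8 ± 0.11 on stiff and -0.69 ± 0.08 over both (edgeR adjusted p = 0.0047, 3.9e-05 and 4.92e-08). Without soft serum+LIF+PD03 library 1, the soft change was -0.47 with an adjusted p of 0.112. Because these are bulk RNA samples, fewer cells expressing a gene and less RNA per cell cannot be told apart.

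Lefty2 (chr1:180893108-180899103) followed the same order at every comparison. It had 67.6, 81.1 and 89.9 CPM (lowest, median, highest) in soft serum+PD03, and 54.6, 55.9 and 62.8 CPM with LIF. On stiff the 3 libraries without LIF had 79.6, 89.4 and 77.2 CPM and the 3 with LIF 48.5, 51.9 and 48.3 CPM. Again no library with LIF reached the lowest library without it. The log2 fold change was -0.48 ± 0.07 on soft, -0.73 ± 0.08 on stiff and -0.61 ± 0.05 over both (edgeR adjusted p = 0.00041, 1.54e-07 and 1.28e-10), and these 3 calls were kept without any 1 of the libraries. The pair shares sequence: 17.9% of the 50-base words of Lefty1 transcripts and 12% of those of Lefty2 occur in the other gene, so some reads could have been assigned to either or to neither.

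Of the 14 TGF-beta family genes examined, 4 fell over both substrates, against 0.588% of all genes, and none rose, with a median of -0.051. Besides Lefty1 and Lefty2, Skil, an inhibitor of SMAD transcription factors, was among them. Skil fell by 0.15 over both (edgeR adjusted p = 0.00917), and missed the threshold without stiff serum+LIF+PD03 library 1 or stiff serum+PD03 library 2 (adjusted p = 0.0993 and 0.1).

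**Figure D1:**
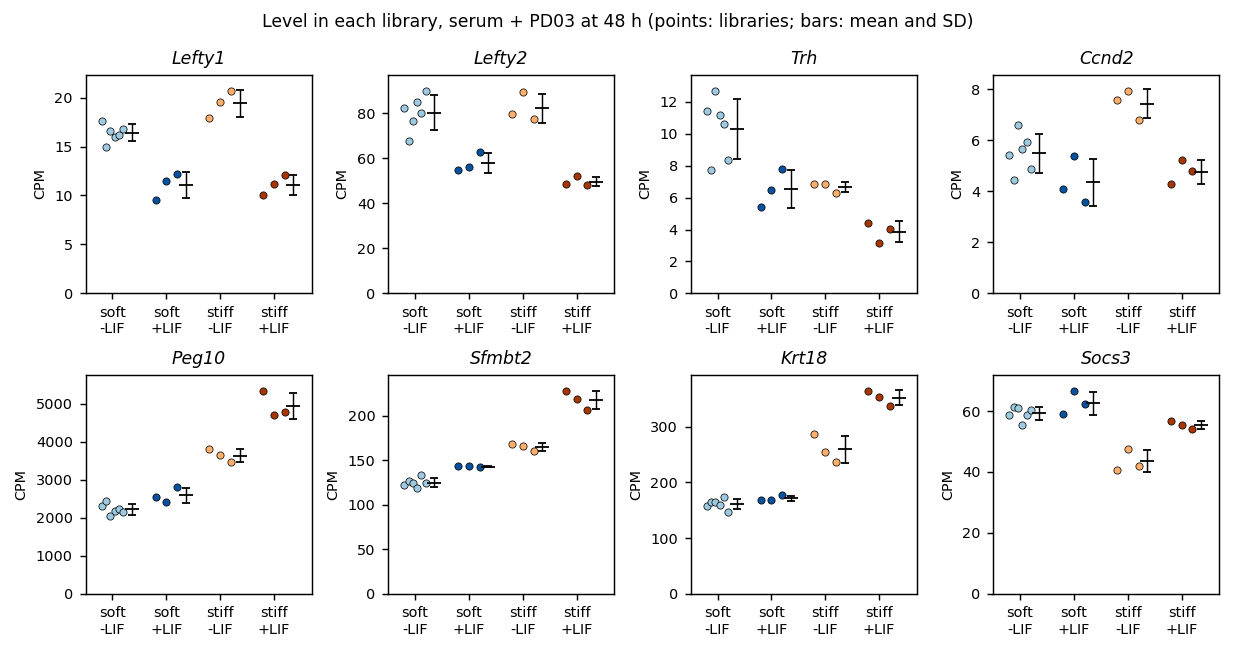
Level in CPM of selected genes in each of the 15 libraries, beside each group's mean and standard deviation (SD). For Lefty1, the stiff libraries with LIF lie between 10.1 and 12.1 CPM, below all 3 stiff libraries without LIF (17.9 to 20.7 CPM).

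The largest decrease over both substrates among called genes with at least 5 CPM was in Trh, which encodes the precursor of thyrotropin-releasing hormone. On soft it had 7.75, 10.9 and 12.7 CPM without LIF (lowest, median, highest) and 5.39, 6.48 and 7.79 CPM with it. The stiff libraries had 6.85, 6.87 and 6.29 CPM without LIF and 4.42, 3.15 and 4.02 CPM with it. The soft ranges overlapped slightly and the stiff ranges did not overlap. The change was -0.69 ± 0.13 on soft, -0.79 ± 0.17 on stiff and -0.74 ± 0.11 over both (edgeR adjusted p = 0.00631, 0.0118 and 1.93e-05). The soft call was lost without serum+LIF+PD03 library 1 or 2 (adjusted p = 0.139 and 0.0566), and the stiff call without stiff serum+LIF+PD03 library 2 or stiff serum+PD03 library 2 (0.135 and 0.125).

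Genes of the D-cyclin step of the cell cycle also changed. Ccnd2, which encodes cyclin D2, was 4.46, 5.52 and 6.59 CPM in soft serum+PD03 (lowest, median, highest) and 4.08, 5.38 and 3.6 CPM with LIF. On stiff it was 7.56, 7.94 and 6.81 CPM without LIF and 4.27, 5.21 and 4.79 CPM with LIF. The soft groups overlapped and the stiff groups did not. The fold change was -0.5 ± 0.08 over both (edgeR adjusted p = 0.000271) and -0.65 ± 0.12 on stiff (0.00244). The stiff call was lost without stiff serum+LIF+PD03 library 1 or stiff serum+PD03 library 2 (0.0591 and 0.0658). Ccnd1, for cyclin D1, fell by 0.19 over both (edgeR adjusted p = 0.00102), while Cdkn1c, the gene for the CDK inhibitor p57, rose by 0.23 (0.0175). The Cdkn1c call was lost without any 1 of 5 libraries, up to an adjusted p of 0.0973 without soft serum+LIF+PD03 library 3. Of the 13 G1 cyclins and CDK inhibitors tested, these 3 were the ones called over both, against 221 of all 17702 genes. The list median was -0.025.

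Phf19, an accessory subunit of the Polycomb complex PRC2, had 7.39, 8.03 and 9.23 CPM in soft serum+PD03 and 6.6, 5.78 and 5.45 CPM with LIF. On stiff, its levels were 8.71, 7.12 and 7.32 CPM without LIF and 5.32, 5.31 and 5.11 CPM with it. No range overlapped, and the gene fell by 0.51 over both (edgeR adjusted p = 0.000166). Mcam, a cell adhesion molecule of the immunoglobulin family, fell by 0.41 over both (0.000136). Notum, which encodes a secreted inhibitor of Wnt ligands, fell by 0.36 (0.000392), and was the only one of 10 Wnt targets called. Its soft call (-0.39, adjusted p = 0.0245) was lost without any 1 of 4 soft libraries, up to 0.276 without serum+LIF+PD03 library 3.

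Several genes of glycolysis fell by small amounts. Slc16a3, the lactate exporter MCT4, had 33.4, 36.4 and 39.5 CPM in soft serum+PD03 (lowest, median, highest) and 27, 29.8 and 25 CPM with LIF. In the stiff groups it had 32.2, 35.6 and 35.5 CPM without LIF and 25, 26.6 and 28.1 CPM with it. The groups did not overlap on either substrate. The change was -0.39 ± 0.06 over both, -0.41 ± 0.08 on soft and -0.37 ± 0.09 on stiff (edgeR adjusted p = 2.23e-05, 0.00555 and 0.023). Without soft serum+LIF+PD03 library 1 or 3 the soft call was lost (0.0699 and 0.216), and without any 1 of the 3 stiff serum+LIF+PD03 libraries the stiff call was lost (0.253, 0.113 and 0.0517). It was also lost without stiff serum+PD03 library 2 or 3 (0.197 and 0.164), and so in 5 of 6 omissions.

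Over both substrates 5 of the 17 glycolysis genes fell, against 0.588% of all genes, and none rose. The list median was -0.102, against -0.002 for all genes. The other 4 were Pdk1 (-0.29), the kinase that restrains pyruvate dehydrogenase, Pfkl (-0.17), a phosphofructokinase subunit, Pgk1 (-0.16), phosphoglycerate kinase, and Ldha (-0.15), lactate dehydrogenase A, with edgeR adjusted p = 0.00514, 0.00436, 0.0197 and 0.00436. Between 3 and 5 of the list were called when 1 library was left out, and 6 by DESeq2. Pgk1 was lost without any 1 of 7 libraries (up to 0.111), Pdk1 without stiff serum+LIF+PD03 library 1 or soft serum+LIF+PD03 library 3 (0.0746 and 0.0646), and Ldha without stiff serum+PD03 library 2 (0.0553). Of the 50-base words of Pgk1, 53.9% occur in other annotated transcripts, chiefly Pgk1-rs7. None of the 13 mitochondrially encoded mRNAs was called by edgeR over all 36 libraries or by DESeq2, and none had an unadjusted p under 0.05, although 12 of the 13 had a positive change and their median was 0.207. With no filter on low counts, and in the fit of the 15 libraries alone, 7 of them were called. The share of counts from these mRNAs was higher in every stiff library with LIF than in any without it, while the soft ranges overlapped, and its part in the other changes was not tested.

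Genes of the trophectoderm, the outer lineage of the blastocyst, made up part of the increases. Of 10 such markers, 4 rose over both substrates, against 0.661% of all genes, none fell, and the median was 0.24. DESeq2 called 7, as did edgeR with no filter on low counts or on the 15 libraries alone, the other 3 being Cdx2, Gata3 and Tfap2a. On stiff alone 2 rose (median 0.363), against 0.294% of all genes, and on soft none was called (median 0.087). Krt18 and Krt8 encode the paired keratins of simple epithelia. Krt18 (chr15:102028180-102032027) had 147, 161 and 174 CPM in soft serum+PD03 (lowest, median, highest) and 169, 168 and 178 CPM with LIF. Its stiff values were 286, 255 and 236 CPM without LIF and 364, 354 and 338 CPM with it. The soft groups overlapped, and every stiff library with LIF was above every stiff library without it. The change was 0.09 ± 0.06 on soft (edgeR adjusted p = 0.726), 0.44 ± 0.06 on stiff (3.9e-05) and 0.27 ± 0.04 over both (0.000151). The soft-minus-stiff difference of -0.35 ± 0.09 did not pass the threshold (0.415).

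Krt8 (chr15:101996698-102004482) was 152, 168 and 188 CPM in soft serum+PD03, and 182, 171 and 176 CPM with LIF. On stiff it was 293, 257 and 260 CPM without LIF and 361, 359 and 342 CPM with it. As for Krt18, the ranges overlapped on soft only. It rose by 0.39 ± 0.07 on stiff (edgeR adjusted p = 0.00222) and by 0.23 ± 0.05 over both (0.0042). Of its 50-base words, 26.9% are shared, mainly with the pseudogene Krt8-ps.

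The transcription factor genes Hand1 and Tfap2c rose by 0.25 and 0.14 over both (edgeR adjusted p = 0.0171 and 0.0281). Hand1 missed the threshold without stiff serum+LIF+PD03 library 1, stiff serum+PD03 library 2 or soft serum+LIF+PD03 library 3 (0.0746, 0.0664 and 0.0826), and Tfap2c without any 1 of 6 libraries (up to 0.121 without stiff serum+LIF+PD03 library 1). Cdx2, the homeobox factor that defines the lineage, had 3.93, 4.89 and 5.65 CPM in soft serum+PD03 and 7.62, 6.28 and 5.99 CPM with LIF. On stiff it had 7.43, 7.86 and 7 CPM without LIF and 10.5, 9.05 and 9.37 CPM with LIF. The groups did not overlap on either substrate, but the change of 0.42 ± 0.12 had an adjusted p of 0.0714. Elf5, a defining factor of trophoblast stem cells, was under 1 CPM in all 15 libraries. It lay between 0.109 and 0.861 CPM in soft serum+PD03.

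The 12 largest increases over both substrates among called genes with at least 5 CPM included genes known from the placenta. They were Adh1 (0.51), an alcohol dehydrogenase, Gab2 (0.49), a signalling adaptor, Mlxipl (0.46), a glucose-responsive transcription factor, Sct (0.43), the gene for secretin, Dlx3 (0.42) and Esx1 (0.37), homeobox genes of the placenta, Gadd45g (0.4), a stress-response gene, Ascl2 (0.39), a trophoblast transcription factor, Nxf7 (0.39), Acp5 (0.38), an acid phosphatase, Nrk (0.37), a kinase, and Phlda2 (0.35). Their edgeR adjusted p-values ran from 7.26e-05 for Nrk to 0.0318 for Acp5. Calls of Acp5, Ascl2 and Sct were lost in 6, 8 and 4 of the 15 omissions of a library, up to adjusted p-values of 0.138, 0.134 and 0.115. Adh1 was lost without stiff serum+LIF+PD03 library 1 (0.0813) and Nxf7 without stiff serum+PD03 library 2 (0.0583), and calls of the other 7 were kept in all 15 omissions. Gab2 serves as an example. It had 10.3, 11.3 and 12.9 CPM in soft serum+PD03, and 14.9, 14.2 and 16.2 CPM with LIF. The stiff libraries had 16.3, 15.4 and 12.8 CPM without LIF and 23.2, 21.1 and 22.1 CPM with it. The groups were apart on both substrates, and the change was 0.49 ± 0.1 (edgeR adjusted p = 0.00403).

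Several of the genes that rose are imprinted, that is, expressed mainly from the allele of 1 parent. A list of imprinted genes was drawn up after their values were seen, so its counts are a description only. Of its 49 tested members 9 rose over both, against 0.661% of all genes, and none fell, with a median of 0.036. They were Sfmbt2, Peg10, Phlda2, Ascl2, Igf2, H19, Cdkn1c, Peg3 and Slc38a4. Sfmbt2, a Polycomb-group gene on chromosome 2, had 119, 124 and 134 CPM in soft serum+PD03 and 144, 144 and 142 CPM with LIF. On stiff, its levels were 168, 166 and 160 CPM without LIF and 228, 219 and 207 CPM with it. The groups were apart on both substrates, with changes of 0.2 ± 0.04 on soft and 0.4 ± 0.05 on stiff (edgeR adjusted p = 0.029 and 4.47e-07). The soft call was lost without any 1 of 6 of the 9 soft libraries, up to an adjusted p of 0.213 without serum+LIF+PD03 library 3.

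Peg10, a retrotransposon-derived gene needed for the placenta, had 2040, 2200 and 2430 CPM in soft serum+PD03 and 2560, 2420 and 2810 CPM with LIF. In the stiff groups it had 3800, 3660 and 3460 CPM without LIF and 5340, 4700 and 4780 CPM with it. A single soft library with LIF fell just inside the range without LIF, and the stiff groups were apart. It rose by 0.33 ± 0.04 over both (edgeR adjusted p = 1.02e-06). Phlda2, which restrains placental growth, rose by 0.35 (0.000245), Igf2, a fetal growth factor, by 0.3 (0.00203), and the neighbouring noncoding RNA H19 by 0.25 (0.00313). The H19 call was lost without soft serum+LIF+PD03 library 3 (0.0518), and 61.2% of the 50-base words of Igf2 are shared with the overlapping gene Gm49394.

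**Figure D2:**
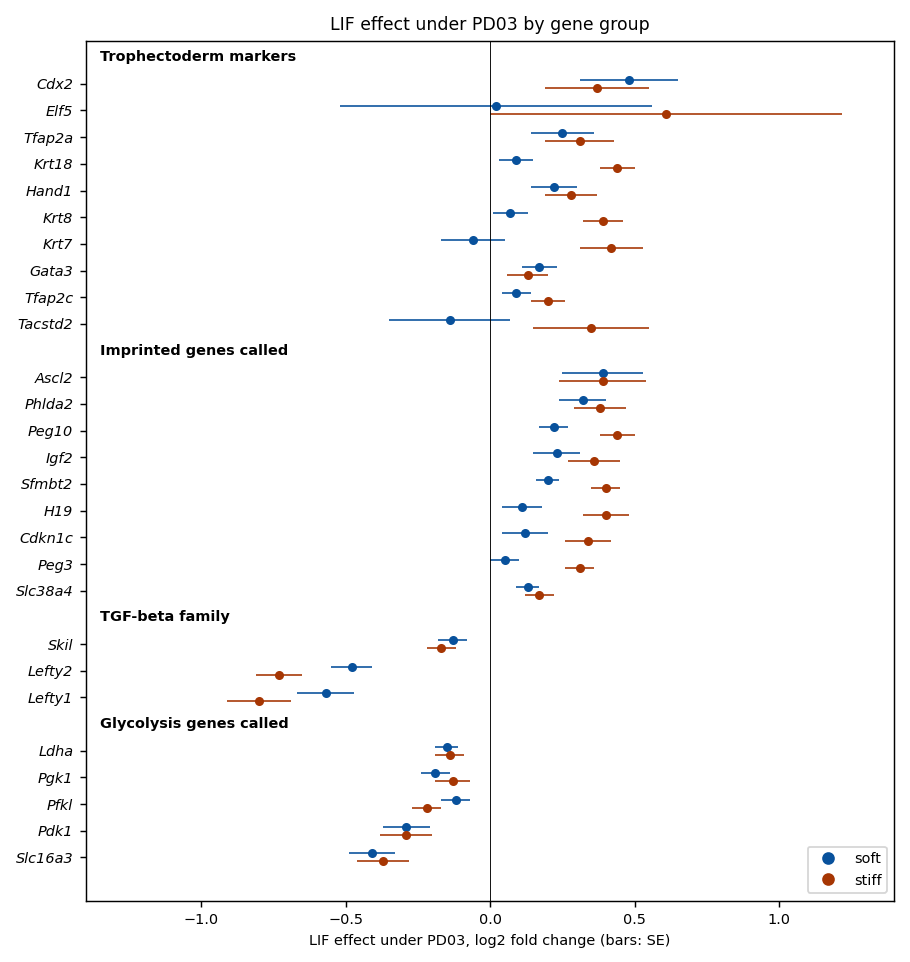
Log2 fold change with LIF under PD03 (x axis) on soft (blue) and stiff (orange), with bars for the SE, for all 10 trophectoderm markers, for Lefty1, Lefty2 and Skil of the TGF-beta family, and for the imprinted and glycolysis genes called over both substrates. The 10 trophectoderm markers are all above 0 on stiff, and Lefty1 and Lefty2 lie at -0.48 or lower on both substrates.

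Few genes of the other groups were called over both substrates, where 221 of all 17702 genes were called. None of 3 general pluripotency genes, 14 ERK targets, 9 mesoderm and streak markers, 7 neural markers, 11 genes of the 2-cell-like state, 18 interferon-response genes or 12 basement membrane genes was called by edgeR or DESeq2. Of these lists 0, 2, 2, 2, 1, 1 and 4 genes, in that order, had an unadjusted edgeR p under 0.05, and the proteoglycan gene Hspg2 of the last was called with no filter on low counts. Of 15 primitive endoderm markers, the endocytic receptor gene Lrp2 was the only one called by edgeR or DESeq2 (0.19, edgeR adjusted p = 0.00151), and Dab2 was called beside it with no filter on low counts or on the 15 libraries alone. Of 9 DNA methylation enzymes, the dioxygenase gene Tet2 rose by 0.15 (0.0244) and the methyltransferase gene Dnmt3a fell by 0.16 (0.0236). Tet2 was lost without any 1 of 3 libraries (up to 0.0858 without soft serum+LIF+PD03 library 3) and Dnmt3a without any 1 of 5 (up to 0.167 without stiff serum+PD03 library 2). Cyp51 was the only one of 20 cholesterol synthesis genes called (-0.18, 0.043), and was lost in 11 of 15 omissions, with RLE scaling and with no filter on low counts. No fibroblast or feeder marker of 10 tested was called by edgeR or DESeq2, and 2 had an unadjusted edgeR p under 0.05. Their summed level was 40.4 to 53.8 CPM in soft serum+PD03, 37.9 to 52.1 CPM with LIF on soft, 81.4 to 89.9 CPM in stiff serum+PD03 and 100 to 105 CPM with LIF on stiff, most of it from the collagen gene Col1a1. On stiff this sum was thus higher with LIF in all 3 libraries, and its part in the stiff increases was not tested.

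The LIF effects on the 2 substrates can be set side by side, since they share no library. Of the 52 genes that rose on stiff, 44 had a positive change on soft, and 28 of them had an unadjusted p under 0.05 there. Of the 39 that fell on stiff, 34 had a negative change on soft, 23 with an unadjusted p under 0.05. Among all genes 48.1% were positive and 51.9% negative on soft, and 3.46% and 4.62% were so with an unadjusted p under 0.05. The median change on soft was 0.12 for the genes that rose on stiff and -0.18 for those that fell. Called on both substrates were Lefty1, Lefty2, Trh, Slc16a3, Sfmbt2, Hip1, Lgr4, Trim2 and Zfp459. The last 4 of these were outside the rule for named genes, and are named because the set is small.

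Some genes were called on a single substrate. On soft they included Mlxipl (0.56), the histone gene Hist1h3h (0.49), Eps8l2 (0.31), an actin regulator, and Parm1 (0.31). Rhox9 (0.3), a reproductive homeobox gene, and Rasgrp2 (-0.4), an exchange factor for Rap, were also called on soft. On stiff they included Dlx3 (0.57), Zfp36l3 (0.54), Nxf7 (0.53), Ptgs2 (0.49), the gene for cyclooxygenase-2, and Rprl3 (-0.94), a noncoding RNA. Rasgrp2 had 20.2, 20.8 and 22.2 CPM in soft serum+PD03 and 16.8, 15.1 and 15.7 CPM with LIF. Its stiff values were 15.6, 13.3 and 16.2 CPM without LIF and 14.7, 14.8 and 14.8 CPM with it. The soft groups were apart and the stiff groups overlapped. The difference of -0.39 ± 0.11 between the LIF effects had an edgeR adjusted p of 0.53, so it was not shown to differ between substrates. The soft call was lost without serum+LIF+PD03 library 2 or 3 (0.0665 and 0.0648). Most of the other calls on a single substrate were easily lost when a library was left out. On soft, Eps8l2 and Parm1 were each lost in 7 of 9 omissions of a library (up to adjusted p-values of 0.273 and 0.238), and Mlxipl and Rhox9 in 6 of 9 (up to 0.216 and 0.598). Hist1h3h (edgeR adjusted p = 0.00887) was lost in 1 of 9, without serum+LIF+PD03 library 3 (0.219). Its counts are uncertain, since 93.9% of its 50-base words occur in other histone genes. On stiff, Nxf7 was lost in 5 of 6 (up to 0.316), and Dlx3, Zfp36l3 and Ptgs2 in 4 of 6 (up to 0.156, 0.296 and 0.106), while Rprl3 was kept in all 6.

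**Figure D3:**
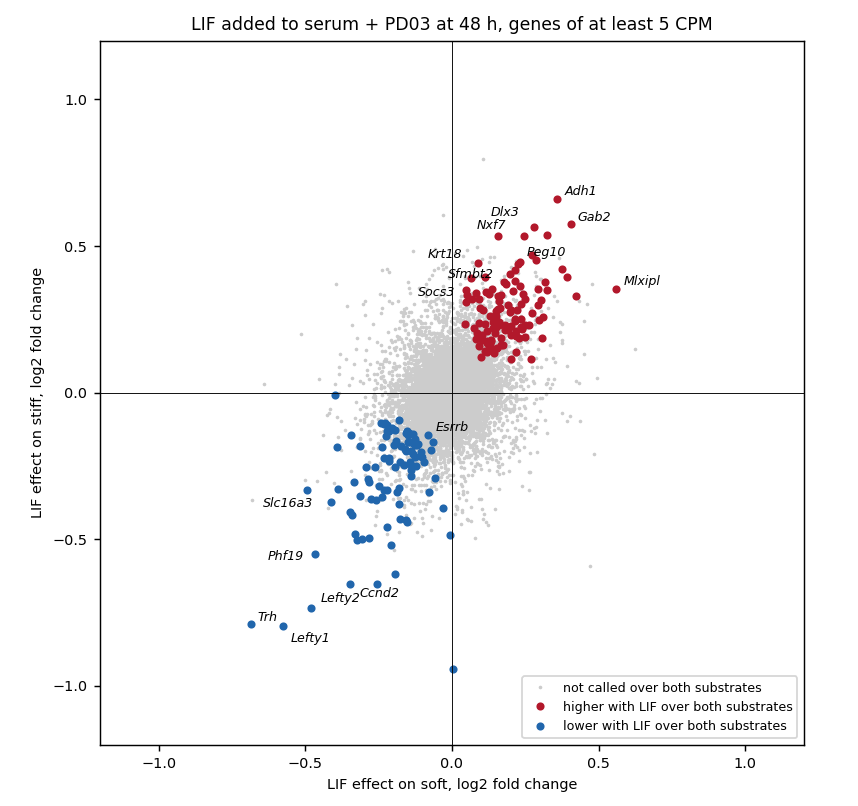
Log2 fold change with LIF on soft (x axis) against stiff (y axis) for 10388 genes with a mean of at least 5 CPM, with the 209 called over both coloured and 1 gene outside the axes. Lefty1, Lefty2 and Trh lie far down on both axes, and Mlxipl is farthest to the right of the called genes.

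A direct test of the difference between substrates called 1 gene of 17702. None was higher (0%) and 1 was lower (0.00565%) for soft minus stiff, with 830 genes at an unadjusted p under 0.05. That gene was Thbs1 (chr2:118111876-118127133), which encodes the matrix glycoprotein thrombospondin-1. On soft it had 31.3, 33.7 and 39 CPM without LIF (lowest, median, highest) and 29.6, 28.9 and 28.9 CPM with it. On stiff it had 72.2, 72.7 and 69.6 CPM without LIF and 91.3, 92 and 87.3 CPM with it. All 3 soft libraries with LIF lay under the range without it, and all 3 stiff libraries with LIF lay above it. The change was -0.23 ± 0.07 on soft (edgeR adjusted p = 0.291), 0.33 ± 0.07 on stiff (0.0118), and the difference -0.57 ± 0.1 (0.0255). This call was lost without any 1 of 10 of the 15 libraries, with an adjusted p of up to 0.197 without stiff serum+PD03 library 3. It was also lost in 6 of the 15 ways to leave out 2 soft serum+PD03 libraries, which was done because 2 unidentified libraries came from the other pool.

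The next genes by p, Flnc and Acta2, were also of the actin and matrix system, and fell just short of the threshold. Flnc, an actin crosslinker, had 40.1, 47.8 and 50.5 CPM in soft serum+PD03 and 40.5, 47.6 and 44.8 CPM with LIF. The stiff libraries had 116, 105 and 105 CPM without LIF and 146, 142 and 139 CPM with it. The soft groups overlapped and the stiff groups were apart, with a stiff change of 0.39 ± 0.07 (edgeR adjusted p = 0.000635) and a difference of -0.47 ± 0.09 (0.0521). This difference passed with DESeq2 (0.0129), with no filter on low counts (0.000137) and in the fit of the 15 libraries alone (0.0215), and missed the threshold in 13 of the 15 omissions of a library. Acta2, smooth muscle actin, had 50.7, 62.9 and 69.6 CPM in soft serum+PD03 and 39.7, 48.1 and 54.5 CPM with LIF. On stiff, its levels were 151, 138 and 130 CPM without LIF and 189, 173 and 153 CPM with it. Each comparison was short of the threshold (soft -0.36, 0.126; stiff 0.3, 0.202; difference -0.65, 0.0534). The difference for Acta2 passed with no filter on low counts (1.28e-09) and on the 15 libraries alone (0.0185), but not with DESeq2 (0.43), and it missed the threshold in 11 of the 15 omissions.

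The remaining 3 of the 6 genes with the smallest p were the histone gene Hist1h3h (0.7, edgeR adjusted p = 0.0867), the glycolytic regulator Pfkfb3 (-0.53, 0.235) and the focal adhesion gene Lpp (-0.35, 0.406). All 3 passed with no filter on low counts, Hist1h3h and Lpp on the 15 libraries alone, and Hist1h3h with DESeq2 (0.0273). Of the 50-base words of Hist1h3h, 93.9% occur in other histone genes, so its counts are uncertain. Of the 18 targets of SRF and YAP, the transcription regulators that respond to actin and load, 2 rose on stiff, Thbs1 and Flnc. Among all genes 0.294% rose there. The list median was 0.19 on stiff, and on soft none was called (median -0.068). The list was chosen with earlier results of these data known, so it is not independent evidence of its direction. The stiff call of Thbs1 was lost without stiff serum+LIF+PD03 libraries 1 or 2, or stiff serum+PD03 libraries 2 or 3 (0.0998, 0.101, 0.0608 and 0.104).

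**Figure D4:**
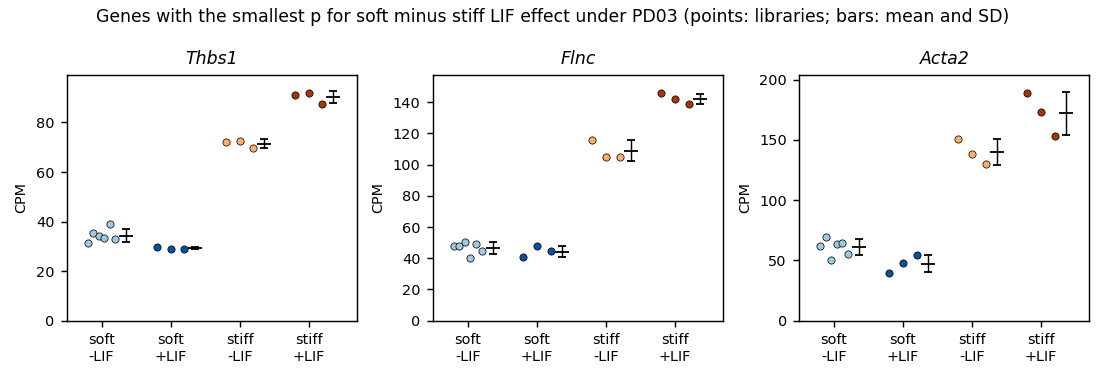
Level in CPM by library for the 3 genes with the smallest p for a difference in LIF effect between soft and stiff under PD03, with group means and SDs. For Thbs1, the 3 stiff libraries with LIF (87.3 to 92 CPM) are above the stiff libraries without LIF, while the 3 soft libraries with LIF (28.9 to 29.6 CPM) are below the soft ones without it.

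The LIF pathway itself gave a small response under PD03. Socs3, the STAT3-induced feedback inhibitor of the receptor, had 55.4, 59.5 and 61.3 CPM in soft serum+PD03 and 58.9, 66.6 and 62.4 CPM with LIF. In the stiff groups it had 40.8, 47.5 and 42.1 CPM without LIF and 56.6, 55.3 and 54.1 CPM with it. The soft groups overlapped and the stiff groups were apart. The change was 0.08 ± 0.06 on soft (edgeR adjusted p = 0.781), 0.34 ± 0.07 on stiff (0.0115) and 0.21 ± 0.05 over both (0.0104). The stiff call was lost without stiff serum+LIF+PD03 libraries 1 or 2, or stiff serum+PD03 libraries 1 or 3 (0.0998, 0.0609, 0.0902 and 0.104). In the edgeR fit, Socs3 was the only gene called over both among 22 of the LIF receptor and STAT3 pathway (median -0.032) and among 26 tested LIF and STAT3 targets (median 0.059). At an unadjusted edgeR p under 0.05 were 8 of these 22 and 9 of these 26, against 2036 of all 17702 genes. A positive change was found in 9 of the 22 and 19 of the 26. DESeq2 and the fit of the 15 libraries alone also called the targets Bcl3 and Pramel7, and edgeR with no filter on low counts also called Bcl3, so that 3, 3 and 2 targets were called in those settings. The receptor subunit gene Il6st changed by 0 ± 0.03 and Stat3 by 0.05 ± 0.04.

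Promoter windows from RefSeq (GRCm38.p6, 250 bases before to 50 after the start) were searched for TTCNNNGAA, the core pattern of a STAT site, which is its own reverse complement. The window of Socs3 holds it 154 bases upstream of the start, and that of Esrrb holds it 178 bases upstream of the first of its 2 starts. These sites are shown because Socs3 rose with LIF under both conditions, and Esrrb, also with the pattern, changed in opposite directions. The capitals mark the pattern.
Socs3, chr11:117969502-117969530, minus strand: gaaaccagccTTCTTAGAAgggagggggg
Esrrb, chr12:86360929-86360957, plus strand: aacggaaactTTCGTGGAAagcacttgag
The pattern was in 8.3% of all 32851 windows and 6.59% of those of tested genes. It was in 8.11% of the windows of genes that rose under PD03 over both substrates, 7.48% of those that fell and 4.24% of those that rose without PD03. These matches are descriptions of the letters, not sites of binding.

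With LIF under PD03, 3 of 16 naive pluripotency genes were called over both substrates, against 221 of all 17702 genes. Dppa3 and Tet2 rose, Esrrb fell, and the list median was 0.011. The number called ran from 0 to 3 with 1 library left out. At an unadjusted edgeR p under 0.05 were 5 of the 16, against 2036 of all 17702 genes. Dppa3, a maternal-effect gene of naive cells and the germline, had 66.2, 68.9 and 75 CPM in soft serum+PD03 and 77.5, 79.2 and 89.5 CPM with LIF. Its stiff values were 64.9, 55.1 and 58.2 CPM without LIF and 71.1, 67.4 and 68.9 CPM with it. The groups were apart on both substrates, and it rose by 0.23 ± 0.05 (edgeR adjusted p = 0.00971). The call was lost without stiff serum+PD03 library 2 or soft serum+LIF+PD03 library 3 (0.0583 and 0.0829), and 16.5% of its 50-base words are shared with pseudogenes. Klf4, a STAT3 target and reprogramming factor, had 271, 286 and 296 CPM in soft serum+PD03 and 297, 300 and 291 CPM with LIF. On stiff it had 244, 260 and 244 CPM without LIF and 255, 246 and 256 CPM with LIF. Its groups overlapped, and the change was 0.03 ± 0.03, with a 95% interval of -0.03 to 0.09.

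Esrrb, an orphan nuclear receptor that sustains self-renewal, had 477, 490 and 505 CPM in soft serum+PD03 and 451, 484 and 455 CPM with LIF. The stiff libraries had 433, 413 and 408 CPM without LIF and 375, 384 and 376 CPM with it. The soft groups overlapped and the stiff groups were apart. It fell by 0.11 over both (edgeR adjusted p = 0.0421), a call that was lost without any 1 of 13 of the 15 libraries (up to 0.193), with RLE scaling and with no filter on low counts.

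Without PD03 the same comparison was larger in this pathway. Over both substrates 127 genes (0.717%) rose and 71 (0.401%) fell with LIF. On soft alone 3 genes rose and none fell without PD03, and on stiff alone 126 rose and 123 fell, against 19 calls on soft and 91 on stiff with PD03. Whether the substrates differed in this was not tested. Without PD03, 1 of the 3 stiff serum+LIF libraries had another pool code than the other 2 and the 3 in stiff serum. The columns do not identify this library. The soft libraries without PD03 all came from 1 pool. Pool was thus not balanced over LIF on stiff without PD03, nor in the differences from it below, and its part was not tested. Socs3 rose by 0.58 ± 0.05 (edgeR adjusted p = 5.46e-11), from group means of 65.3 to 86.1 CPM on soft and 48.3 to 81.2 CPM on stiff. Of the LIF and STAT3 targets 8 rose and 1 fell (median 0.153), and of the naive genes 7 rose and none fell (median 0.168). Of 11 formative pluripotency genes, which mark cells leaving the naive state, 7 fell (median -0.275), against 1, Dnmt3a, under PD03 (median -0.053).

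The difference itself, the LIF effect with PD03 minus that without, was higher in 73 genes (0.412%) and lower in 83 (0.469%). With no filter on low counts it was higher in 95 and lower in 76. Of the 12 libraries without PD03, stiff serum library 2 and soft serum+LIF library 2 had the lowest shares of counts from mitochondrially encoded mRNAs (0.574 and 0.626%, against 1.06 to 1.44% in the other 10) and the fewest detected genes (20970 and 21299). With the first left out 68 of 147 calls were higher, and with the second 85 of 141. Leaving out the second also left 93 of 189 calls without PD03 as increases. Naive genes were among the lower ones, with 6 of 16 called (Esrrb, Klf4, Nr0b1, Tbx3, Tfcp2l1 and Zfp42), none higher and a median of -0.205, against -0.006 over all genes. Klf4 rose by 0.33 ± 0.03 without PD03, and the difference was -0.3 (edgeR adjusted p = 8.88e-05). For Esrrb the difference was -0.31 (2.7e-05), for Tfcp2l1 -0.31 (0.000102) and for Socs3 -0.37 (0.0018). The calls for Zfp42 and Nr0b1 were lost in 24 and 11 of the 27 omissions of a library, up to an adjusted p of 0.163 and 0.105, and those of Klf4, Esrrb, Tbx3, Tfcp2l1 and Socs3 in none.

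The difference had its smallest p-value in Trh. Its group means without PD03 were 113 CPM in serum and 130 CPM with LIF on soft, and 81.1 and 102 CPM on stiff, against 3.86 to 10.3 CPM in the groups with PD03. It rose by 0.27 ± 0.06 with LIF without PD03 and fell with PD03, a difference of -1 ± 0.12 (edgeR adjusted p = 2.45e-06). The other genes named by this rule were Jam2 (-0.34), a junctional adhesion molecule, Fblim1 (-0.31), a filamin-binding adhesion protein, and Sema6a (0.7), a transmembrane semaphorin. Sema6a rose by 0.3 ± 0.07 with PD03 (0.018) and fell by 0.41 without it (0.000218), where the means were 58 CPM in stiff serum and 35 CPM with LIF.

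Lefty2, Krt18, Krt8, Ccnd2 and Peg10 also differed between the settings. The difference was -0.49 ± 0.08 for Lefty2, 0.38 ± 0.07 for Krt18, 0.35 ± 0.08 for Krt8, -0.63 ± 0.1 for Ccnd2 and 0.35 ± 0.06 for Peg10 (edgeR adjusted p = 0.00042, 0.000835, 0.008, 0.000102 and 0.000606). These 5 calls were kept in every omission of 1 library. The difference for Lefty1 was -0.45 (0.0148), and was lost without stiff serum+LIF library 2, stiff serum+LIF+PD03 library 1 or soft serum+LIF+PD03 library 1 (0.0607, 0.0553 and 0.0565). Without PD03 these genes started from other levels. Lefty1 had means of 35.6 to 45.1 CPM in the groups without PD03, Krt18 38.4 to 62.5 CPM and Ccnd2 72.3 to 98.5 CPM.

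Across the 18 tested SRF and YAP targets the difference was positive in all 18, with 3 called (Ccn2, Flnc and Tpm1) and a median of 0.283. Over all genes 0.412% were called higher and the median was -0.006. Without PD03 none of the 18 had a positive change, 4 fell (Acta2, Ccn2, Tpm1 and Vcl) and the median was -0.199. Among all genes 49.8% were positive there and 0.401% fell. These values rest on the libraries without PD03, which include the 2 with low mitochondrial shares. Ccn2, a matricellular YAP target, rose by 0.13 ± 0.03 with PD03 (edgeR adjusted p = 0.0293) and fell by 0.16 without it (0.0175), and the rise was lost without any 1 of 5 libraries (up to 0.142 without stiff serum+LIF+PD03 library 2). The difference for Flnc was lost without any 1 of 7 of the 27 libraries, up to an adjusted p of 0.0848 without soft serum+LIF library 3.

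Between the settings, 10 genes called over both with and without PD03 moved the same way and 8 the opposite way. The same-way genes included Brca2, Epha2, Fam171b, Pop1, Slc16a3, Socs3, Tet2, Tfap2c and Zfp266. The opposite ones were Ccn2, Esrrb, Foxi3, Sema6a, Stard10, Stmn2, Trh and Vim. Most of these were outside the naming rule and are listed because the sets are small. Of the 127 genes that rose without PD03, 87 had a positive change with it, against 49% of all genes, and 29 of the 127 had an unadjusted p under 0.05 there in that direction, as did 5.62% of all genes. Of the 71 that fell without PD03, 39 had a negative change with it, against 51% of all genes, 14 of them with an unadjusted p under 0.05 (5.89% of all genes). On stiff alone, 76 of the 126 that rose without PD03 were positive with it (50.8% of all genes), and 53 of the 123 that fell were negative (49.2%). Of the 126, 1 was called the same way and 1 the opposite way. Of the 123, 1 was called the same way and 6 the opposite way.

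**Figure D5:**
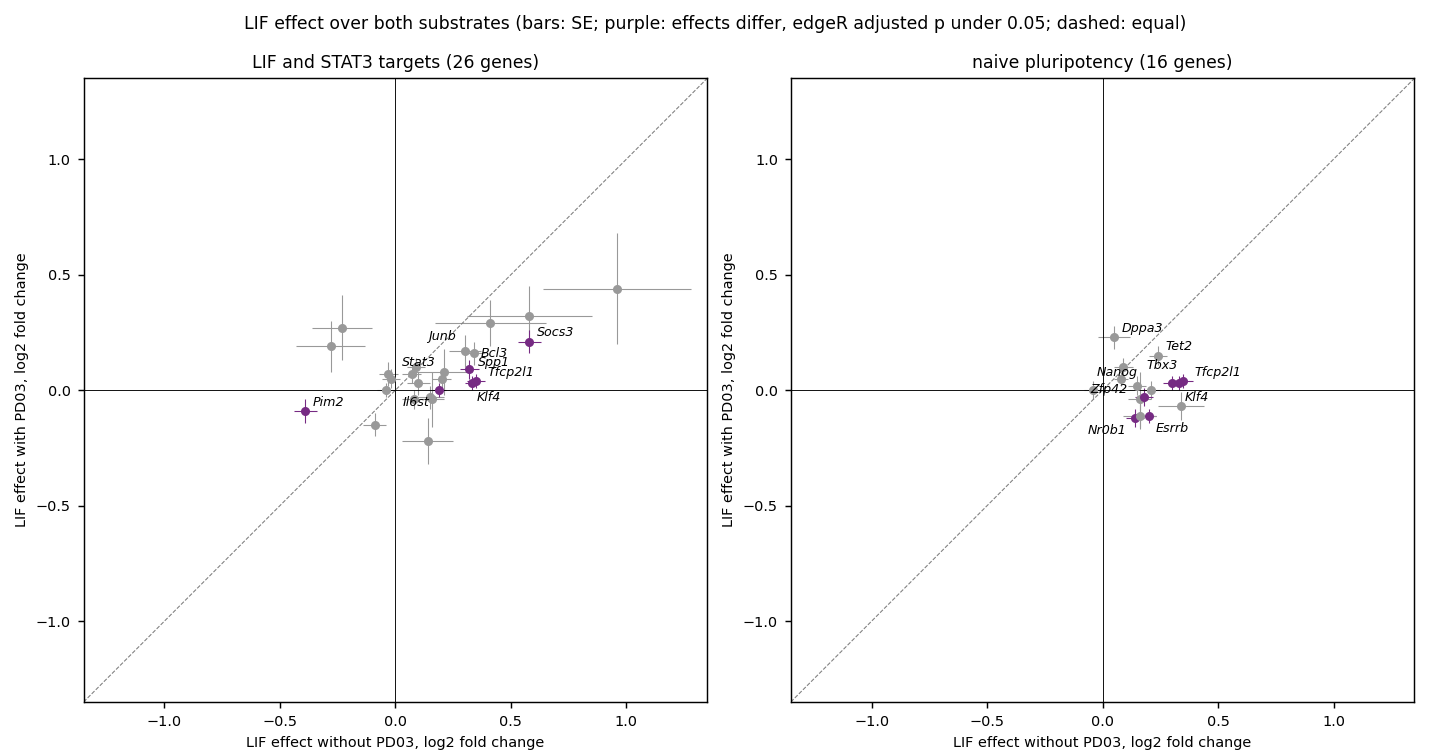
Log2 fold change with LIF over both substrates without PD03 (x axis) against that with PD03 (y axis) for 26 LIF and STAT3 targets (left) and 16 naive pluripotency genes (right), with bars for the SE and purple points where the effects differ at an edgeR adjusted p under 0.05. Socs3 lies at 0.58 without PD03 and 0.21 with it, and the naive genes Klf4, Tbx3 and Tfcp2l1 lie near 0 with PD03 and at 0.3 to 0.35 without it.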

How the data were processed

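RNA was extracted from embryonic stem cells (NuGen libraries, per the labels). Per the study's methods and the submitters' processing notes, the authors aligned HiSeq reads to mm10 (GRCm38) with STAR 2.5.2a and counted reads per Ensembl gene with htseq-count. Whether strand was used, and how reads with several matches were counted, is not given in the sources used here. The authors deposited raw whole-number read counts for 49671 genes, without normalisation. Columns carry group names and no replicate number, so they were assigned to groups only. Replicates were checked for duplication: chi-square per gene over 24 pairs of libraries ran from 2.39 to 12.8, so none was treated as a duplicate.

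The tests used edgeR 4.0.16 under R 4.3.3, with filterByExpr by group (17702 genes), TMM scaling, 1 coefficient per group over all 36 libraries, and quasi-likelihood tests of contrasts with Benjamini-Hochberg adjustment at 0.05. The mean of the soft and stiff LIF effects is the effect over both. CPM used TMM-scaled library sizes. Coordinates came from GENCODE annotation of GRCm38, and shared 50-base words were counted over annotated transcripts. Scripts were tested on simulated data. Alternatives were RLE scaling, no filter on low counts, a fit of the 15 libraries with PD03 alone, DESeq2 1.42.0, leaving out each library, and leaving out each pair of soft serum+PD03 libraries.

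Any member of a gene list could be named. Otherwise, genes with a mean of at least 5 CPM were named: per direction the 12 largest called changes over both with 1 sign on each substrate, the 5 largest per substrate, and the 6 smallest p for each difference of effects. Library totals ran from 10405696 to 24800445 counts in the 15 libraries, and genes of a few CPM rest on few reads. The comparison, the lists and the genes were chosen with earlier results of these data known, and the imprinted list was added after its values were seen. A called gene is not reported here.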

Additional observations from a re-analysis of the deposited data

Results flagged for a closer look

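In the 6 soft serum+PD03 libraries, 80 named genes were examined for a library apart from the rest, and 3 had one, where chance gives about 5%. Library 2 had 7.07 CPM of Dab1, library 3 had 116 CPM of Pfkp and library 1 had 6.91 CPM of Sct. Each lay above the others of its group, and these were different libraries.

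The LIF effect under PD03 differed between soft and stiff in Thbs1 by -0.57 on the log2 scale, by edgeR's test of the difference.

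The genes in this paragraph were chosen because edgeR's test of the difference called them, so their number is not a result. They are list members or genes of the naming rule, out of 156 called among 17702 tested. Between media with and without PD03, the LIF effect over both substrates differed in these 32 genes by that test. It was lower with PD03, on the log2 scale, in Trh (-1), Ccnd2 (-0.63), Lefty2 (-0.49), Notum (-0.48), Lefty1 (-0.45), Socs3 (-0.37), Jam2 (-0.34), Esrrb (-0.31), Fblim1 (-0.31), Lama1 (-0.31), Tfcp2l1 (-0.31), Klf4 (-0.3), Tbx3 (-0.27), Nr0b1 (-0.26), Spp1 (-0.23), Pfkp (-0.21), Zfp42 (-0.21), Il6st (-0.19) and Nid1 (-0.18). The differences for Zfp42, Pfkp, Nid1 and Il6st were lost in 24, 21, 20 and 17 of the 27 omissions of a library, and those of the last 3 also with no filter on low counts (adjusted p = 0.128, 0.139 and 0.217). It was higher with PD03 in Sema6a (0.7), Krt18 (0.38), Krt8 (0.35), Peg10 (0.35), Phlda2 (0.35), Pim2 (0.3), Ccn2 (0.28), Flnc (0.28), Lrp2 (0.28), Dnmt3b (0.25), Peg3 (0.22), Tpm1 (0.21) and Sfmbt2 (0.2). The call for Phlda2 was lost in 8 of the 27 omissions and with DESeq2 (adjusted p = 0.062). Pim2 and Dnmt3b fell without PD03 (-0.39 and -0.27) and had small changes with it (-0.09 and -0.02), while the laminin gene Lama1 rose without PD03 (0.36) and changed by 0.04 with it.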

How the results depend on the processing

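No named gene that was followed through the alternatives changed sign. The balance of calls did turn: on soft, 24 of 33 calls rose in a fit of the 15 libraries with PD03 alone and 39 of 73 with no filter on low counts, against 7 of 19, and the LIF effect with minus without PD03 was higher in 95 of 171 calls with no filter, against 73 of 156. With no filter on low counts, 73 genes were called on soft, 141 on stiff and 21 for soft minus stiff. In a fit of the 15 libraries with PD03 alone the counts were 33 on soft, 364 over both and 6 for soft minus stiff. DESeq2 called 42 on soft, 154 on stiff, 347 over both, 3 for soft minus stiff and 318 without PD03, and shared 213 of the 221 calls over both with edgeR. Leaving out 2 soft serum+PD03 libraries gave as few as 7 calls on soft, and 0 to 3 for soft minus stiff. The cause of these shifts was not tested. With 1 library left out, calls ran from 3 to 22 on soft, 24 to 82 on stiff, 127 to 233 over both, 0 to 3 for soft minus stiff, 91 to 161 for with minus without PD03, and 129 to 189 without PD03. With minus without PD03, 91, 101, 95, 97 and 103 calls were left without stiff serum+LIF library 1 or 2, stiff serum+LIF+PD03 library 1, stiff serum+PD03 library 2 or soft serum+LIF library 3. Without PD03, 129 and 130 were left without soft serum library 3 or stiff serum library 1. With 1 library left out, counts of calls over both for the trophectoderm list ran from 2 to 5, for the TGF-beta family list from 3 to 4 and for the glycolysis list from 3 to 5, and DESeq2 called 7, 4 and 6. The fit of the 15 libraries alone called 7, 4 and 7, and no filter gave 7, 4 and 6. No paired analysis was possible because the count columns carry no replicate numbers. Depth limits genes of a few CPM.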
